A study of Mus musculus with 12 samples.

Results

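The hypoxia response of wild-type (WT) bone marrow B cells was read from 6 of the 12 libraries of the series, chosen by their labels: 3 WT hypoxia libraries and 3 WT normoxia libraries, over every gene of the count table. The series sequenced total RNA of mouse bone marrow B cells, sorted with magnetic beads and kept under hypoxia or normoxia, to find the genes that HIF-1α controls. Its other 6 libraries are B cells lacking HIF-1α (KO), 3 under hypoxia and 3 under normoxia. In the study, Hif1a was deleted with a Cre driven by the B cell gene Mb1 (Cd79a), so that the deletion reaches only cells of that lineage, and control mice were littermates either without Cre or heterozygous for it. The labels of the WT libraries do not say which of these control genotypes they carry. Both conditions share the WT genotype, the bead sort and the culture, and differ in oxygen. Whether the replicate libraries come from separate animals is not stated in the labels, so the p-values measure the spread between libraries, part of which may be technical.

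Cells sense oxygen largely through the α subunits of hypoxia-inducible factor (HIF). With oxygen, prolyl hydroxylases modify HIF-α, the von Hippel-Lindau protein marks it for destruction, and little of it is found. Without oxygen it pairs with HIF-β and binds short DNA elements near its targets, among them the genes of glycolysis, of mitophagy and of blood vessel growth. Bone marrow is a low-oxygen tissue, and developing B cells there pass between resting and dividing states that place different demands on glucose and nucleotides.

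WT B cells under hypoxia carried more RNA of most glycolytic enzymes (15 of 20 called higher), of the mitophagy receptors Bnip3 and Bnip3l and of the oxygen-sensing enzymes Egln1, Egln2 and Egln3 than under normoxia, and less RNA of interferon-stimulated genes, antigen-processing genes and DNA replication genes. Of 17506 genes with enough counts to test, 2003 (11.4%) were called higher under hypoxia and 2859 (16.3%) were called lower, which together is 27.8% of the genes, where called means an adjusted p under 0.05 in edgeR's quasi-likelihood test. More genes were called lower than higher, and the median change was larger among those called higher. The median log2 fold change was 0.74 among the genes called higher and -0.55 among those called lower, against 0.01 over all genes tested. A change of over 2-fold was found for 708 genes called higher (4.04%) and 558 called lower (3.19%), of over 8-fold for 58 and 57, and of over 16-fold for 27 and 18. All hypoxia libraries lay above all normoxia libraries in 3409 genes (19.5%) and below them in 3647 (20.8%), among them 1938 of the genes called higher and 2713 of those called lower.

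Genes with large rises were mostly near silence under normoxia. The 209 genes called more than 4-fold higher had a median of 1.497 CPM (the count as a share of the library total, after scaling between libraries by TMM) under hypoxia and 0.240 CPM under normoxia, and 149 of them averaged below 1 CPM under normoxia. The 158 genes called more than 4-fold lower had medians of 0.872 CPM under hypoxia and 5.61 CPM under normoxia. Of 1557 long noncoding RNAs 9.76% were called higher and 5.2% lower, while of 13641 protein-coding genes 12.7% were called higher and 19.5% lower.

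The WT libraries held between 27629175 and 36533223 counts. B-lineage identity was carried by all of them: the 10 B-lineage markers summed to 13170, 14930 and 12820 CPM under hypoxia and to 14720, 17020 and 14230 CPM under normoxia, and Cd79a, the Cre locus and a subunit of the B cell receptor, did not pass the test (log2 fold change -0.12, adjusted p = 0.387). Markers of other cells were also present. The neutrophil list summed to 4313, 7090 and 7936 CPM under hypoxia against 3011, 5940 and 6352 CPM under normoxia, the plasmacytoid dendritic cell list to 4880, 4768 and 4951 CPM under hypoxia against 6969, 6784 and 6807 CPM under normoxia, and the T and NK cell list to 192, 163 and 181 CPM under hypoxia against 337, 278 and 269 CPM under normoxia. The megakaryocyte and platelet list summed to 80.3, 72.7 and 105.2 CPM under hypoxia against 36.7, 51.4 and 36.1 CPM under normoxia, with all 10 members at a positive log2 fold change and 1, Vwf (1.35), called. The stromal and endothelial list summed to 319.5, 314.2 and 298.9 CPM under hypoxia against 500.7, 437.7 and 469.4 CPM under normoxia, with 4 of 11 tested members called higher and 3 lower. In bulk libraries, fewer cells of a type and less RNA per cell cannot be told apart. Library 3 of each condition stood apart from libraries 1 and 2 by sex-linked RNA, with 0 Y-linked counts and Xist at 1632 CPM under hypoxia and 2154 CPM under normoxia, where the other WT libraries had Xist between 0.591 and 0.760 CPM. Same-numbered libraries deviated together, and with the number as a block 2446 genes were called higher and 3415 lower. Without libraries 1 and 2 of both conditions, a fit with 1 WT library a condition that takes its spread from the KO groups, 506 genes were called higher and 863 lower.

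**Figure D1:**
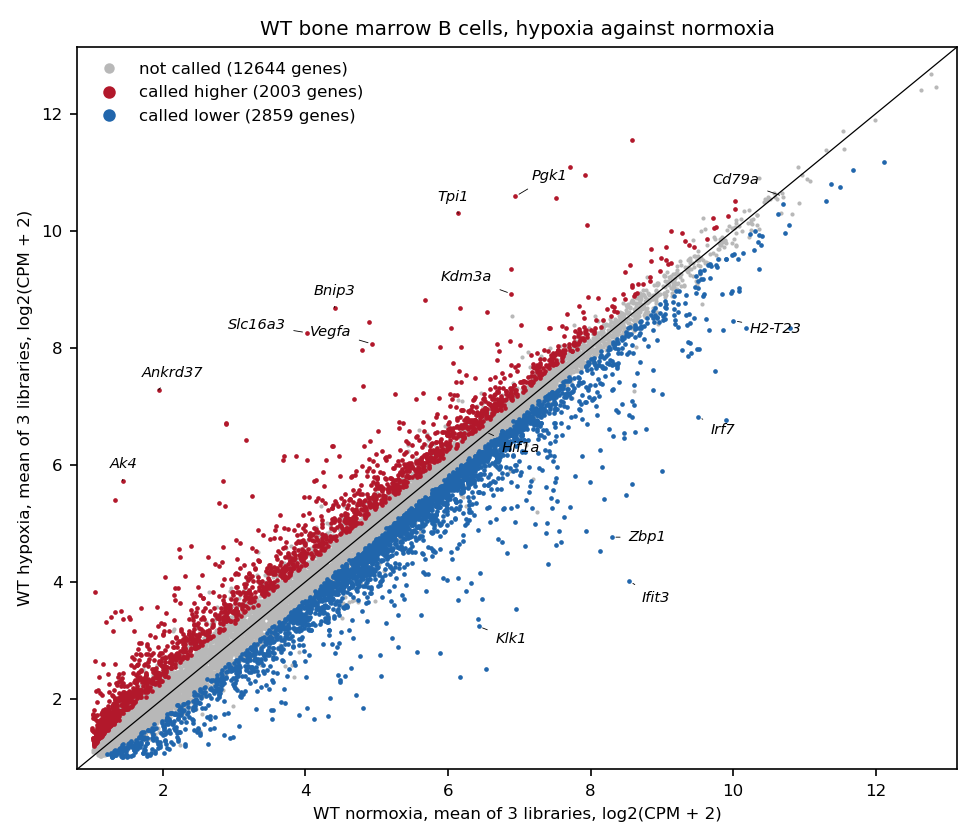
Mean level of each tested gene in WT hypoxia libraries against WT normoxia libraries, as log2(CPM + 2) on both axes, with genes called higher and lower under hypoxia in colour. The named genes range from Ankrd37, far above the diagonal, to Ifit3, far below it, with Hif1a and Cd79a close to it.

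The enzymes that read oxygen were themselves among the genes that rose. Egln3, a prolyl hydroxylase of HIF-α, was at 140, 100 and 69.7 CPM in WT hypoxia libraries, against 5.17, 5.75 and 5.26 CPM in WT normoxia libraries. The groups lay far apart, with hypoxia library 3 the lowest of its group, and the log2 fold change was 4.26 ± 0.30 (SE, n = 3 each, adjusted p = 4.3e-06). Its relatives Egln1 and Egln2 rose by log2 2.02 ± 0.16 and 0.41 ± 0.08. Hif1a itself was at 84.2, 84.3 and 110.5 CPM under hypoxia and at 85.0, 87.2 and 96.8 CPM under normoxia, overlapping ranges with a log2 fold change of 0.05 ± 0.10 (adjusted p = 0.733). Epas1, which encodes HIF-2α, was at 5.37, 3.94 and 4.95 CPM under hypoxia and at 1.66, 1.74 and 1.34 CPM under normoxia, a log2 fold change of 1.59 ± 0.23 (adjusted p = 0.000202). Cited2, which competes with HIF-α for its coactivator, rose by log2 0.47 ± 0.07. Over the lists, 3 of 8 tested HIF subunits and partners rose (median log2 0.41) and 4 of 10 hydroxylase and VHL complex genes rose and 1, the scaffold Cul2 (-0.32), fell (median 0.16, with 3 called lower without normoxia library 3), the rises including Vhl at 0.30 ± 0.08, which was not called without hypoxia library 1 or normoxia library 1. The third HIF gene called, Hif3a, is at the edge of detection, and it was not called with the replicate block or without any one of hypoxia libraries 1 and 2 and normoxia libraries 1 and 2.

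Several other enzymes that use oxygen and 2-oxoglutarate rose too. Kdm3a, a histone H3 lysine demethylase, was at 500.4, 446.5 and 502.0 CPM under hypoxia and at 115.5, 108.0 and 125.9 CPM under normoxia, with a log2 fold change of 2.05 ± 0.08 (adjusted p = 1.05e-08). Its paralog Kdm3b had a log2 fold change of 0.05 ± 0.09 (adjusted p = 0.717). Of 22 tested JmjC demethylase genes, 8 were called higher and 1 lower (median log2 0.18), among them Jmjd6 (1.60 ± 0.12), Kdm5b (1.47 ± 0.11), Kdm6b (1.24 ± 0.12) and Kdm4b (0.77 ± 0.08). In the TET and ALKBH group, Alkbh5, an RNA m6A demethylase, was the gene called higher (1.24 ± 0.09), with 3 of 12 called lower: Alkbh1 (-0.38), Alkbh3 (-0.42) and Alkbh4 (-0.43, not called without hypoxia library 1 or normoxia library 2).

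Collagen-modifying hydroxylases were also higher. P4ha1, the common α subunit of collagen prolyl 4-hydroxylase, was at 271, 233 and 239 CPM under hypoxia and at 27.2, 26.1 and 23.8 CPM under normoxia, a log2 fold change of 3.27 ± 0.12 (adjusted p = 2.59e-09). Its paralog P4ha2 had 180, 124 and 73 counts in the hypoxia libraries and 2, 3 and 1 in the normoxia libraries, a ratio of 68.1 whose 95% counting interval was 31.0 to 187. Plod2, a collagen lysyl hydroxylase, rose by log2 2.81 ± 0.31, Plod3 by 0.58 ± 0.11, and P4hb, the β subunit and a general disulfide isomerase, by 0.41 ± 0.07. In all, 6 of 10 tested collagen hydroxylase genes were called higher (median log2 0.63).

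The strongest rises outside the metabolic pathways included Ankrd37, an ankyrin-repeat gene known as a direct HIF target, at 159, 158 and 143 CPM under hypoxia and at 2.24, 1.93 and 1.34 CPM under normoxia (log2 fold change 6.40 ± 0.17, adjusted p = 1.08e-10). Rgs11, a regulator of G protein signalling, was at 47.8, 45.7 and 26.8 CPM under hypoxia and at 0.651, 0.311 and 0.556 CPM under normoxia (6.31 ± 0.41, adjusted p = 1.21e-06). Both genes were separated from their normoxia values by more than the whole spread within a group. Dnm1, a dynamin that is best known from neurons, rose by log2 4.71 ± 0.49. Sp7, the osteoblast transcription factor osterix, had 103, 76 and 35 counts under hypoxia and 1, 8 and 3 under normoxia, a ratio of 19.3 with a counting interval of 10.8 to 38.0. Mt2, a metal-binding metallothionein, had a summed 212 counts under hypoxia and 9 under normoxia, a ratio of 25.5 (13.2 to 56.6).

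The stretches just upstream of 5 of these genes are shown because a HIF core motif can be read in them directly. They end at the base before the RefSeq gene start (build GRCm38.p6) and run along the gene's strand: Bnip3 at chr7:138909507-138909626 (minus), Ankrd37 at chr8:45999851-46000010 (minus), P4ha2 at chr11:54100804-54100923 (plus), Pgk1 at chrX:106186940-106187099 (plus) and Slc16a3 at chr11:120949007-120949066 (plus). Capitals mark ACGTG or GCGTG on either strand, that is also CACGT or CACGC, and overlapping matches share letters.
Bnip3: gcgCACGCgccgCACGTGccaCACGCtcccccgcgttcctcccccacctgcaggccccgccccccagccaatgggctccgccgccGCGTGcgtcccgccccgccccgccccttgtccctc
Ankrd37: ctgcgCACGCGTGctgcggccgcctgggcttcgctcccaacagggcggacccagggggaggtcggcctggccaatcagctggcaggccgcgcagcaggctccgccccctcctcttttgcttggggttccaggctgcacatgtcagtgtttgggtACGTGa
P4ha2: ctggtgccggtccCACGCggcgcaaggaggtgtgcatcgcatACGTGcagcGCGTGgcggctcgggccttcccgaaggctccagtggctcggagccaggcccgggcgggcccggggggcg
Pgk1: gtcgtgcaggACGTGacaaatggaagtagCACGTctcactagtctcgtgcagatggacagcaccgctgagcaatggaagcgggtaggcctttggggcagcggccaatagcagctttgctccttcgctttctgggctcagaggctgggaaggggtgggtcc
Slc16a3: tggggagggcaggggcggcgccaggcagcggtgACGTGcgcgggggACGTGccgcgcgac

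These hold 5, 3, 3, 2 and 2 matches in the order shown, over 120, 160, 120, 160 and 60 bases. The lengths were set gene by gene, so these counts cannot be compared between genes. Tpi1, a glycolytic enzyme gene that rose by more than 16-fold, is printed beside these stretches (chr6:124814159-124814278, minus) because the 120 bases shown hold 0 matches. The rest of the 250 bases before its start is not shown.
Tpi1: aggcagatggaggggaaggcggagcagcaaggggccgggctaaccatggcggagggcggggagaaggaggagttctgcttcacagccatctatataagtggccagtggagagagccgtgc

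A core this short is common, so a match is a description and not a site. In RefSeq promoter windows of 300 bases the HIF core was held by 62.1% of the 124 genes called more than 4-fold higher and 59.4% of the 433 called more than 2-fold higher, against 60.4% of all 11485 tested genes with a window. The share was 32.7% among the 98 genes called more than 4-fold lower. Where the WT response was larger than the KO response, 31 of 41 genes with a window held it (75.6%).

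Reads over the interval of the Mir210 hairpin, the host of a microRNA known as a HIF target, numbered 47, 46 and 20 under hypoxia and 2, 0 and 0 under normoxia, a ratio of 61.2 with a wide counting interval of 16.6 to 512. These are reads of long-RNA libraries over the hairpin and do not show the amount of mature miRNA. Its mature arm is shown, with the seed (bases 2 to 8) in capitals, at chr7:141221407-141221428 on the minus strand.
mmu-miR-210-3p: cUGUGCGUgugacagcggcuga

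Glycolysis was the pathway in which most members rose. Of 20 glycolytic enzyme genes, 15 were called higher (median log2 fold change 2.17, against 0.01 over all genes) and 1, the muscle phosphoglycerate mutase Pgam2, was called lower (-0.65 ± 0.12). Together they took 1.68, 1.502 and 1.22% of the counts in the WT hypoxia libraries and 0.181, 0.200 and 0.181% in the WT normoxia libraries. Tpi1, triosephosphate isomerase, was at 1490, 1342 and 938 CPM under hypoxia and at 65.4, 81.1 and 59.7 CPM under normoxia, a log2 fold change of 4.19 ± 0.20 (adjusted p = 3.95e-08). Pgk1, phosphoglycerate kinase, was at 1884, 1572 and 1154 CPM under hypoxia and at 116.7, 131.5 and 115.7 CPM under normoxia (3.66 ± 0.22). In both genes hypoxia library 3 was the lowest of its group and still far above every normoxia library. Without libraries 1 and 2 of both conditions 13 of the glycolytic genes were called higher. Reads that fit both a glycolytic gene and its processed pseudogenes are uncertain, since how they were counted is not given in the sources used here.

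Not every isoform of these enzymes rose. Both aldolases did: Aldoc, the brain form, was at 124, 107 and 77.0 CPM under hypoxia and at 4.99, 6.43 and 4.67 CPM under normoxia (log2 fold change 4.25 ± 0.22), and Aldoa rose by log2 3.04 ± 0.13. Ldha, the lactate dehydrogenase form that favours lactate, rose by log2 3.06, at 1741, 1541 and 1246 CPM under hypoxia against 179.5, 210.8 and 151.8 CPM under normoxia, while Ldhb was at 3.48, 5.91 and 8.32 CPM under hypoxia and at 4.85, 6.40 and 7.70 CPM under normoxia (-0.10, adjusted p = 0.796). Enolase 1 (Eno1) rose by 3.40 ± 0.16, and Eno2 had a log2 fold change of 0.60 (adjusted p = 0.0976). Hexokinase 2 (Hk2) rose by 1.62 ± 0.24 and hexokinase 1 (Hk1) by 0.56 ± 0.10. Pfkfb3, which makes the activator of phosphofructokinase, rose by 1.38 ± 0.10, and Pfkfb4 had 0.03 (adjusted p = 0.905). Differences between isoforms were not tested beyond each gene's own test.

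Among transporters and the enzymes of pyruvate entry more genes were called higher than lower. The shares over all genes tested were 11.4% higher and 16.3% lower. Of 10 glucose and monocarboxylate transporters 4 were called higher and 2, Slc2a6 and Slc16a7 (-0.98), lower (median 0.06). Of 16 switches of glycolysis and pyruvate entry 5 were called higher and 4 lower (median -0.01), with 2, 1, 2 and 2 called lower without hypoxia libraries 1 and 3 and normoxia libraries 1 and 2 in turn. Slc16a3 (MCT4), which exports lactate, was at 379, 308 and 225 CPM under hypoxia and at 11.9, 13.5 and 17.2 CPM under normoxia (log2 fold change 4.42 ± 0.46, adjusted p = 0.000124), whereas Slc16a1 (MCT1) had -0.14 (adjusted p = 0.212). The glucose carriers Slc2a1 and Slc2a3 rose by 2.54 ± 0.19 and 1.21 ± 0.22, and Slc2a6 fell by 0.64 ± 0.14. Pdk1, the kinase that shuts pyruvate dehydrogenase, was at 398, 334 and 303 CPM under hypoxia and at 29.0, 25.6 and 28.6 CPM under normoxia (3.64 ± 0.15, adjusted p = 1.47e-08). Genes of glycogen storage and release rose in part, 9 of 26 with 3 lower (median 0.24), among them Pgm1, which links glucose phosphates (2.45 ± 0.26), Ppp1r3b, a glycogen-targeting subunit of phosphatase 1 (2.09 ± 0.28), glycogen synthase Gys1 (1.23 ± 0.17), the muscle phosphorylase Pygm (1.17 ± 0.12) and the branching enzyme Gbe1 (0.90 ± 0.14). Gmds, the first enzyme towards GDP-fucose, fell by 1.56 ± 0.16.

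Mitochondrial genes moved in both directions. Of 14 tested mitophagy receptors and adaptors 4 were called higher and 10 were not called (median log2 0.083). Of 16 tested hypoxia-remodelled mitochondrial proteins 6 were called higher and 2, Iscu and Chchd4, lower (median 0.155). Chchd4 was not called without hypoxia library 1 or normoxia library 1. The mitophagy receptor Bnip3 was at 514.9, 414.8 and 301.7 CPM under hypoxia and at 19.1, 21.3 and 17.5 CPM under normoxia (log2 fold change 4.41 ± 0.24, adjusted p = 4.79e-07), and its paralog Bnip3l was at 750.2, 654.2 and 539.9 CPM under hypoxia and at 104.6, 127.6 and 115.0 CPM under normoxia (2.49 ± 0.11, adjusted p = 1.58e-08). Hypoxia library 3 was the lowest in both, and neither gene's groups overlapped. The adaptor Sqstm1 rose by 0.43 ± 0.07, and Pink1, the kinase that marks damaged mitochondria, had 0.51 ± 0.16, a call that was lost without any one WT library other than normoxia library 2. Ak4, a mitochondrial adenylate kinase, was at 74.3, 46.9 and 32.0 CPM under hypoxia and at 0.723, 0.591 and 0.806 CPM under normoxia (6.16 ± 0.46, adjusted p = 5.6e-06). Mgarp, which governs mitochondrial transport, had 458, 401 and 216 counts under hypoxia and 1, 1 and 4 under normoxia, a ratio of 194 (counting interval 88.9 to 530).

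Cox4i2, the isoform of a cytochrome c oxidase subunit known from hypoxic tissue, was at 5.37, 4.29 and 2.57 CPM under hypoxia and at 0.145, 0.311 and 0.250 CPM under normoxia (log2 fold change 4.07 ± 0.47, adjusted p = 3.69e-05). The usual isoform Cox4i1 was at 144.0, 169.6 and 139.6 CPM under hypoxia and at 159.7, 221.9 and 143.9 CPM under normoxia, overlapping ranges with a log2 fold change of -0.21 (adjusted p = 0.267). Cox7a1, a muscle isoform, rose by 2.12 ± 0.43. Ndufa4, which sits in complex IV, fell by 0.96 ± 0.16, with every hypoxia library below every normoxia library. Cycs, cytochrome c, fell by 0.83 ± 0.09. Higd1a, an assembly-linked protein of the inner membrane, and Fam162a, a hypoxia-induced mitochondrial protein, rose by 1.48 ± 0.19 and 2.66 ± 0.25.

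Among the remaining mitochondrial genes, lists differed in how many members were called lower, and the counts depended on the libraries. Of 77 mitochondrial ribosomal protein genes, 34 were called lower and 1 higher (median log2 -0.34), led by Mrpl37 (-0.59 ± 0.07), Mrpl52 (-1.26 ± 0.17) and Mrpl19 (-0.63 ± 0.09). The count was 53 with the replicate block and 57 without normoxia library 3, against 19 without hypoxia library 1, 18 without hypoxia library 3 and 21 without normoxia library 2. Library 2 was the highest of its group for 68 of these 77 genes under hypoxia and for 71 under normoxia, which is the shared deviation the block removes. Of 27 genes of the tricarboxylic acid cycle and glutamine use, 14 were called lower and 2 higher (median -0.24), for example Idh3a, a subunit of isocitrate dehydrogenase (-0.89 ± 0.12), with 7 called without hypoxia library 1, 9 without hypoxia library 3 and 8 without normoxia library 2. In the respiratory chain and ATP synthase the counts depended on the pairing. Without the replicate block 9 of 38 complex I genes were called lower and 4 higher (median -0.26). Of 15 complex IV genes 3 were lower and 2 higher (median -0.25), and 3 of 16 ATP synthase genes were lower (median -0.29). In that fit the last 2 lists had shares near the 16.3% over all genes. With the block they did not: lower calls numbered 17 of 38, 7 of 15 and 13 of 16, against 3415 of all 17506 genes. Lower calls in these 3 lists numbered 24, 9 and 13 without normoxia library 3. For complex I they numbered 4 without hypoxia library 1, 4 without hypoxia library 3 and 5 without normoxia library 2, and for complex IV 1 without hypoxia library 1 and 1 without hypoxia library 3. The complex I list counts Ndufa4, which sits in complex IV, among its falls and the paralog Ndufa4l2 among its rises. Of 22 regulators of mitochondrial dynamics and biogenesis 5 were called lower (median -0.07), with 1, 3 and 2 without hypoxia libraries 1 and 3 and normoxia library 1 in turn. The import receptor Tomm70a was at 101.5, 95.4 and 111.0 CPM under hypoxia and at 186.0, 183.7 and 198.0 CPM under normoxia (-0.88 ± 0.07, adjusted p = 2.76e-06). In the opposite direction, mt-Rnr1 and mt-Rnr2, the rRNAs encoded by the mitochondrial genome, had log2 fold changes of 0.85 ± 0.16 and 0.88 ± 0.17, while mt-Nd1, a complex I subunit gene, fell by 0.68 ± 0.16.

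**Figure D2:**
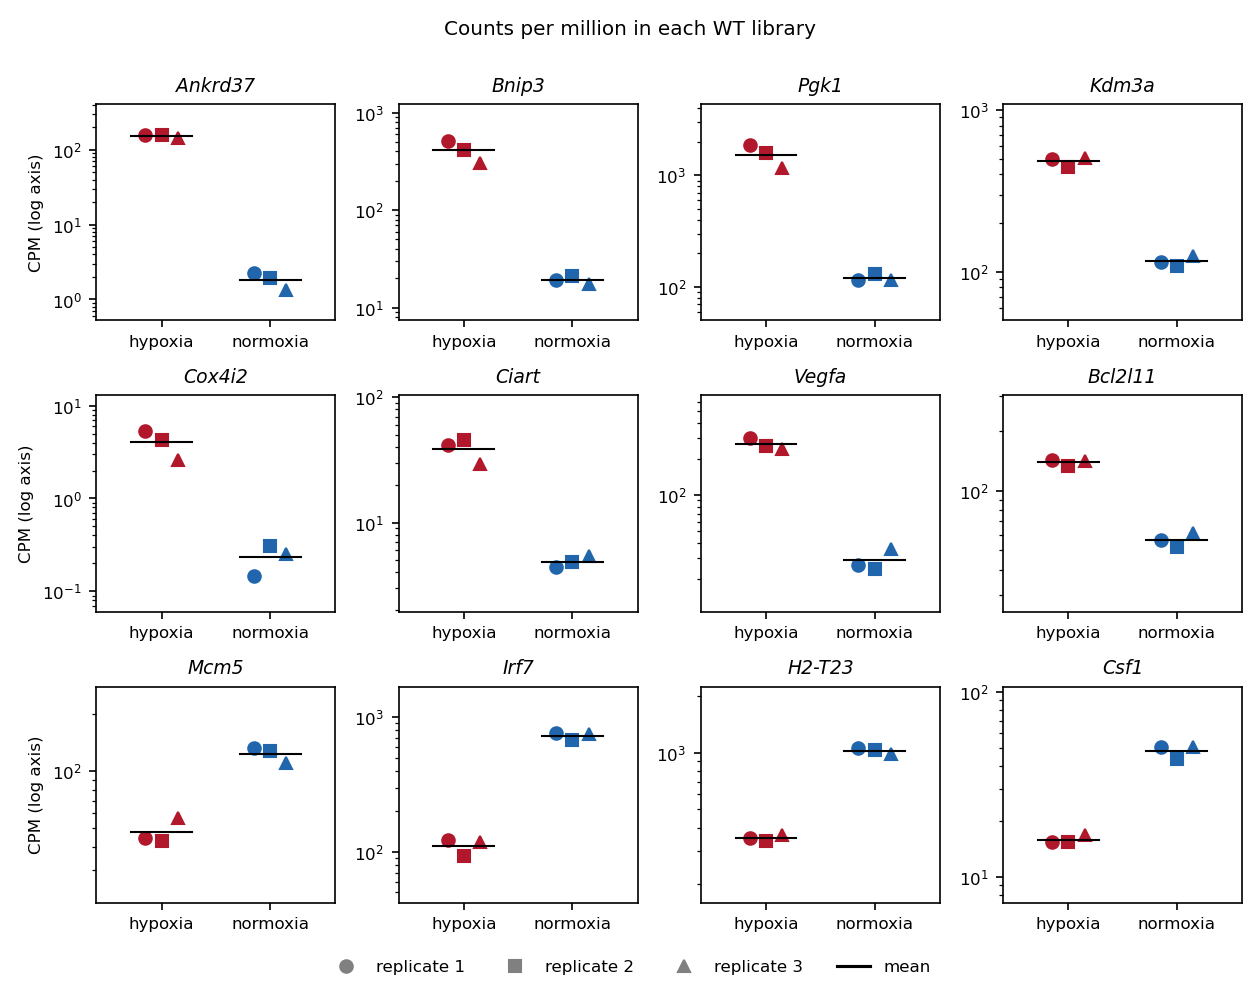
CPM of 12 genes in each library, WT hypoxia left of WT normoxia in every panel, on a log axis, with a circle, square or triangle for libraries 1, 2 and 3 and a line at the group mean. Hypoxia and normoxia libraries do not overlap in any panel, from the 3 hypoxia values of Ankrd37 between 143 and 159 CPM to those of Csf1 between 15.4 and 16.8 CPM.

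Growth and division genes were lower. Mcm5, a subunit of the replicative helicase, was at 44.3, 42.9 and 56.6 CPM under hypoxia and at 132.0, 127.9 and 110.5 CPM under normoxia (log2 fold change -1.36 ± 0.11, adjusted p = 2.14e-06). Of 53 replication genes, 45 were called lower (median -0.87), for example the polymerase subunit Pola1 (-1.60 ± 0.14), the fork protein Timeless (-1.33 ± 0.10) and the ligase Lig1 (-1.33 ± 0.12), and 22 were called lower without libraries 1 and 2 of both conditions. Prim2, the large subunit of primase, was the replication gene called higher (1.25 ± 0.14), at 87.9, 71.3 and 54.2 CPM under hypoxia and at 31.4, 31.1 and 27.0 CPM under normoxia. Deoxynucleotide supply fell alongside, with 18 of 24 pyrimidine and deoxynucleotide genes called lower and 1 higher (median -0.77), including thymidylate synthase Tyms (-1.47 ± 0.17), the ribonucleotide reductase subunit Rrm1 (-1.07 ± 0.10) and CTP synthase Ctps (-1.01 ± 0.11). Of 15 purine synthesis genes 10 were called lower and 1 higher (median -0.37), for example Gart (-0.73 ± 0.10), a trifunctional enzyme of the pathway.

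Mitosis genes fell less steeply and less evenly over libraries. Of 57, 36 were called lower (median log2 -0.48), among them the kinetochore genes Spc24 (-1.07 ± 0.13) and Spc25 (-0.78 ± 0.13) and the cell cycle transcription factor Mybl2 (-0.77 ± 0.12), and the count fell to 1 without libraries 1 and 2 of both conditions. Among the hypoxia libraries, library 2 was the lowest for 55 of the 57 and library 3 the highest for 50. The phosphatase Cdc25b was the mitosis gene called higher (0.49 ± 0.10). Of 41 recombination and mismatch repair genes, 25 were called lower and 2 higher (median -0.42), for example Brca1 (-1.08 ± 0.12), while Msh6, of mismatch recognition, rose by 0.86 ± 0.08 with 188.4, 165.9 and 182.9 CPM under hypoxia and 97.3, 102.0 and 96.6 CPM under normoxia. Among the cyclins, Ccnd1, Ccnd2 and Ccne1 were lower (log2 fold changes -0.93, -1.02 and -1.05), and the arrest-linked genes Ccng2 and Cdkn1b rose by 0.89 ± 0.06 and 0.92 ± 0.08. Replication-dependent histone genes went the other way from the replication genes: 10 of the 25 with enough counts were called higher (median 1.00), for example Hist1h2bc (1.00 ± 0.20) and Hist2h4 (1.59 ± 0.34), with 1 called higher without libraries 1 and 2 of both conditions. Histone copies are nearly identical, and how reads that fit several of them were counted is not given in the sources used here.

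RNA of ribosome biogenesis factors was lower, while that of most ribosomal proteins was not called. Of 50 nucleolar biogenesis factors, 33 were called lower (median log2 -0.43), among them Rrp9 (-1.07 ± 0.13), Rrp12 (-0.97 ± 0.13) and Utp20 (-0.82 ± 0.12), all of rRNA processing, with 11 called without libraries 1 and 2 of both conditions. Of 76 cytosolic ribosomal protein genes 3 were called lower (median -0.01), with 1, 1 and 5 without hypoxia library 1, normoxia library 2 and normoxia library 3 in turn, and 8 were called higher without normoxia library 2. Polr3b, the second largest subunit of RNA polymerase III, was at 60.3, 65.1 and 59.7 CPM under hypoxia and at 121, 114 and 126 CPM under normoxia (-0.96 ± 0.07, adjusted p = 9.13e-07). Of 13 genes of the Myc, Max and Mxd network 4 were called higher and 2 lower (median 0.20), beside 11.4% and 16.3% over all genes tested. The growth regulator Myc fell by 0.69 ± 0.18 and its antagonist Mxi1 rose by 1.36 ± 0.12. Its paralog Mycn was called higher and Mxd3 lower. The mTORC1 inhibitor Ddit4 (REDD1) was at 304, 267 and 198 CPM under hypoxia and at 61.2, 60.7 and 49.7 CPM under normoxia (2.17 ± 0.15, adjusted p = 1.01e-06). Rragd, a GTPase that carries amino acid signals to mTORC1, rose by 1.67 ± 0.10, and Nprl3, of the complex that opposes them, fell by 0.84 ± 0.09. Of 43 proteasome genes 23 were called lower (median -0.34), 15 without hypoxia library 1 and 35 without normoxia library 3. The 23 include Psmb8, Psmb9 and Psmb10, which are counted again with the immunoproteasome genes below.

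Stress pathways did not move alike. Genes of the integrated stress response rose in 10 of 22 cases and fell in 1 (median log2 0.40, with 6 called higher without normoxia library 1), including Asns, asparagine synthetase (0.89 ± 0.09), Trib3, a pseudokinase induced by it (1.39 ± 0.16), and Vldlr, a lipoprotein receptor (4.18 ± 0.44). Endoplasmic reticulum folding genes were lower, 18 of 32 with 2 higher (median -0.31), for example the chaperones Hspa5 (-0.70 ± 0.09) and Calr (-0.81 ± 0.09), whereas Ero1l, the oxidase that forms disulfides, was at 191.5, 139.2 and 149.9 CPM under hypoxia and at 22.5, 22.4 and 33.3 CPM under normoxia (2.62 ± 0.22). Of 33 NRF2 and thiol redox genes, 13 rose and 3 fell (median 0.28), among them Gclm, a subunit of the glutathione-making ligase (1.56 ± 0.15), catalase Cat (0.73 ± 0.08) and Txnrd1, thioredoxin reductase (0.75 ± 0.11). Slc25a22, a mitochondrial glutamate carrier, fell by 1.80 ± 0.11. In the BCL2 family 4 of 22 genes were called higher and 5 lower (median 0.04), beside 11.4% and 16.3% over all genes tested. Those called lower numbered 2, 2, 1 and 3 without hypoxia libraries 1 and 2 and normoxia libraries 1 and 2 in turn. Death inducers were found on both sides, with Bcl2l11 (BIM) and Bbc3 (PUMA) higher, and Bak1 (-0.36) and Bid (-0.27, not called without hypoxia library 1 or normoxia library 1) lower. Bcl2l11 was at 143.0, 133.5 and 140.2 CPM under hypoxia and at 56.7, 51.8 and 61.3 CPM under normoxia (1.29 ± 0.08, adjusted p = 2.29e-07), and Bbc3 rose by 1.03 ± 0.15.

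Of 25 circadian clock genes, a list of repressors, activators and their kinases, 11 were called higher and 14 were not called (median log2 0.58). Ciart, a circadian repressor also called Chrono, was at 41.3, 45.9 and 29.3 CPM under hypoxia and at 4.38, 4.85 and 5.39 CPM under normoxia (log2 fold change 2.99 ± 0.19, adjusted p = 2.82e-07). The repressors Bhlhe41, Nfil3 and Bhlhe40 rose by 1.72 ± 0.15, 1.46 ± 0.17 and 0.97 ± 0.13, and the activator Tef by 0.65 ± 0.08. Of the rises 6 were called without libraries 1 and 2 of both conditions. The hour of harvest was not found in the labels or methods.

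Secreted factors and their receptors changed in both directions. Vegfa, the main vessel growth factor, was at 298, 257 and 243 CPM under hypoxia and at 25.9, 24.2 and 35.8 CPM under normoxia (log2 fold change 3.22 ± 0.14, adjusted p = 1.58e-08). Vegfb rose by 0.64 ± 0.13 and the cytokine Mif by 2.55 ± 0.18, whereas Kdr, the receptor for VEGF-A, was at 8.23, 4.37 and 12.2 CPM under hypoxia and at 99.5, 46.8 and 103.7 CPM under normoxia (-3.33 ± 0.38, adjusted p = 0.000166). Of 25 hypoxia-linked secreted and surface factors 11 were called higher and 3 lower (median 0.70), 4 of the rises being called without libraries 1 and 2 of both conditions. In the purine signalling group the adenosine receptor Adora2a and the adenosine-forming enzyme Nt5e (CD73) rose by 1.19 ± 0.14 and 1.15 ± 0.25, and the nucleotide receptors P2ry12, P2ry13 and P2ry14 were lower (-1.66 ± 0.15, -1.36 ± 0.12 and -1.22 ± 0.12). Csf1, the growth factor of macrophages and osteoclast precursors, was at 15.4, 15.5 and 16.8 CPM under hypoxia and at 50.3, 43.6 and 50.2 CPM under normoxia (-1.60 ± 0.12, adjusted p = 1.01e-06). The inflammatory factors Tnf, Tnfsf10 (TRAIL) and Ccl4 were lower (-1.28 ± 0.20, -1.69 ± 0.27 and -1.48 ± 0.21), and Tnfsf9, the ligand of 4-1BB, rose by 2.47 ± 0.25. Tnfsf11 (RANKL), the osteoclast factor the study centres on, had 2, 3 and 9 counts in the hypoxia libraries and 4, 7 and 0 in the normoxia libraries, too few to test, and its decoy receptor Tnfrsf11b had 0, 0 and 3 counts under hypoxia and no count under normoxia. The study names Tnfsf11 among the genes that its RNA sequencing found raised by hypoxia in WT B cells. It also reports more RANKL RNA by quantitative PCR and more protein by flow cytometry. With the counts here that rise could not be tested.

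Interferon-stimulated genes were among the deepest falls, beside genes outside their lists such as Klk1 and Kdr. Ifit3, an antiviral RNA-binding protein, was at 13.5, 11.2 and 17.7 CPM under hypoxia and at 320, 404 and 390 CPM under normoxia (log2 fold change -4.71 ± 0.46, adjusted p = 7.83e-05). Irf7, the transcription factor that amplifies type I interferon, was at 121.7, 92.9 and 118.1 CPM under hypoxia and at 760.0, 674.2 and 746.6 CPM under normoxia (-2.71 ± 0.26, adjusted p = 2.84e-05). Ifit1, a sensor of viral RNA caps, was at 9.14, 5.67 and 13.99 CPM under hypoxia and at 99.1, 121 and 147 CPM under normoxia (-3.67 ± 0.43). No hypoxia library reached a normoxia library in any of the 3 genes. Of 51 antiviral genes 46 were called lower and 2 higher (median log2 -2.25), and together the list took 0.472, 0.401 and 0.483% of the counts under hypoxia and 1.39, 1.30 and 1.52% under normoxia. The members called higher were Ifitm1, which blocks viral entry (0.87 ± 0.17), and Ifi27 (1.00 ± 0.30), a call for Ifi27 that was lost with the replicate block and without any one WT library other than hypoxia library 2. All 18 tested interferon-inducible GTPases, which attack vacuoles of intracellular microbes, were called lower (median -1.73), for example Ifi47 (-1.84 ± 0.13), Igtp (-1.99 ± 0.15), Irgm1 (-1.71 ± 0.14) and Gbp7 (-2.78 ± 0.25). Without libraries 1 and 2 of both conditions 24 of the antiviral genes and 12 of the GTPases were called lower, and Irf7 (-2.67, adjusted p = 0.0867), Ifit3 (-4.47, adjusted p = 0.0893) and Ifit1 (-3.40, adjusted p = 0.0794) kept their size without passing the threshold. Reads that fit Ifit3 and its near copy Ifit3b cannot be assigned with certainty.

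The upstream stretches of Ifit3 (chr19:34583359-34583528, plus), Ifit1 (chr19:34640769-34640888, plus) and Isg15, a ubiquitin-like antiviral modifier chosen after its values were seen (chr4:156200819-156200908, minus; log2 fold change -3.23), are shown because each carries the repeated GAAA letters of interferon response elements. They end at the base before the RefSeq gene start (GRCm38.p6), and capitals mark GAAA, any 2 bases and GAAA again, or on the other strand TTTC, any 2 bases and TTTC, with overlapping matches sharing letters. This pattern is called the interferon core here.
Ifit3: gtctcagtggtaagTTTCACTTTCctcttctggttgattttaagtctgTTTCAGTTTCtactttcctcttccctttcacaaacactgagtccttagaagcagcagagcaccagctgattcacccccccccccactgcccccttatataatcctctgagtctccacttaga
Ifit1: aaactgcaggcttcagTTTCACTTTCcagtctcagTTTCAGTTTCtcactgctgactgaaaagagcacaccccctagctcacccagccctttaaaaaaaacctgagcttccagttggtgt
Isg15: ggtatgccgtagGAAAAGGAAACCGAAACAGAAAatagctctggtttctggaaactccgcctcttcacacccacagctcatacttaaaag

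The interferon core is rarer in promoters than the HIF core. It was found in 31 of 98 windows (31.6%) of genes called more than 4-fold lower, in 62 of 388 windows of genes called more than 2-fold lower and in 3.23% of those of genes called more than 4-fold higher, against 3.2% of the windows of the 11485 tested genes. With only the bases before the start the shares were 14.4% for genes called more than 2-fold lower and 2.82% over all tested genes.

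**Figure D3:**
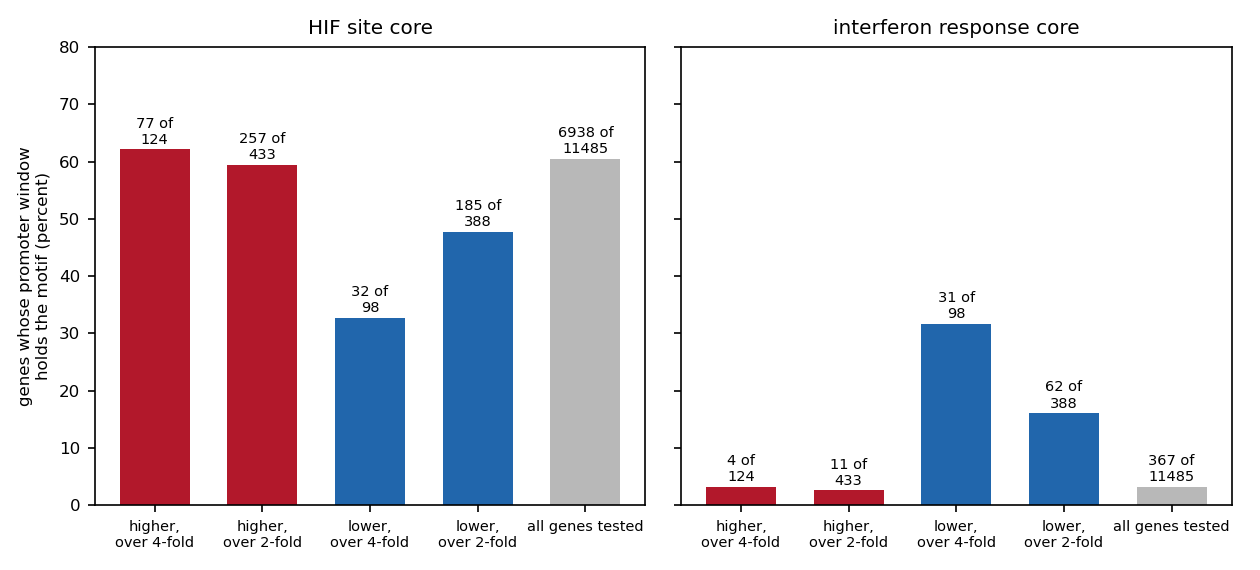
Share of RefSeq promoter windows, in percent, that hold the HIF core or the interferon response core, by direction and size of the WT change and over all tested genes. The interferon core stands at 31.6% in the genes called more than 4-fold lower and at 3.2% over all genes, and the HIF core at 32.7% and 60.4%.

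Antigen presentation genes were lower as well, and most interferon signalling genes were not called. Of 33 interferon receptor, IRF and STAT genes 10 were called lower, 4 higher and 19 not called (median log2 -0.07), with 2 called higher without hypoxia library 2 and 2 without normoxia library 1. The share called higher was near the 11.4% over all genes tested, of which 16.3% were called lower. Stat2, which carries the interferon signal, was lower (log2 fold change -1.09 ± 0.10), and Irf1 fell by 0.63 ± 0.07, whereas the receptor gene Ifngr1 rose by 0.56 ± 0.08. The RNA sensor Tlr3 fell by 2.63 ± 0.29, and 17 of 33 sensor and adaptor genes were called lower and 1 higher (median -0.38). H2-T23, which encodes the nonclassical class I molecule Qa-1, was at 351.5, 337.8 and 364.6 CPM under hypoxia and at 1057, 1027 and 988 CPM under normoxia (-1.54 ± 0.11, adjusted p = 7.75e-07). Of 22 class I and peptide loading genes 19 were called lower (median -0.93), including the peptide transporter Tap1 (-1.32 ± 0.12) and the loading chaperone Tapbp (-1.32 ± 0.08), and 14 were without libraries 1 and 2 of both conditions. All 5 immunoproteasome genes fell, with Psmb9 at 102.4, 94.7 and 109.0 CPM under hypoxia and at 254.5, 253.8 and 228.6 CPM under normoxia (-1.27 ± 0.09, adjusted p = 9.87e-07). Of 22 PARP and Schlafen family genes 13 were called lower and 3 higher (median -0.96), for example Parp10 (-1.29 ± 0.11) and Slfn2 (-1.26 ± 0.12), and 8 of 16 class II genes fell and 2 rose, the falls including H2-Aa (-0.88 ± 0.18). The costimulatory ligand Cd86 fell by 1.21 ± 0.11.

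Plasmacytoid dendritic cells are strong interferon producers and B cell sorts can hold them. Of 16 of their markers 9 were called lower and 1, Cadm1 (1.26 ± 0.27), higher (median log2 -0.59), and Klk1, a kallikrein they express in mice, was at 5.47, 7.64 and 9.21 CPM under hypoxia and at 87.3, 75.2 and 90.3 CPM under normoxia (-3.50 ± 0.17, adjusted p = 2.89e-08). Their defining receptor Siglech, chosen after its values were seen, was at 565, 477 and 542 CPM under hypoxia and at 590, 598 and 653 CPM under normoxia (-0.22, adjusted p = 0.101). Every hypoxia library of Siglech lay below every normoxia library, as in 20.8% of all genes tested, but the change was not called. Bst2, counted with this list, is itself an interferon-stimulated gene. Of 21 tested T and NK cell markers 4 were called lower and 2 higher (median -0.42), beside 16.3% and 11.4% over all genes tested. The T cell coreceptors Cd4 and Cd8a were among the lower ones (-1.75 ± 0.15 and -1.47 ± 0.15). Fcgr1, a monocyte receptor, fell by 3.16 ± 0.33. The monocyte and macrophage list as a whole had 3 of 19 members called higher and 3 lower, with a summed 1958, 2395 and 2552 CPM under hypoxia against 1964, 2341 and 1939 CPM under normoxia, and its highest rise was that of Cd14 (2.36). The part of these cells in the interferon result was not tested. Cd28, a plasma cell and T cell gene, rose by 1.97 ± 0.18, the largest rise in the T and NK cell list.

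**Figure D4:**
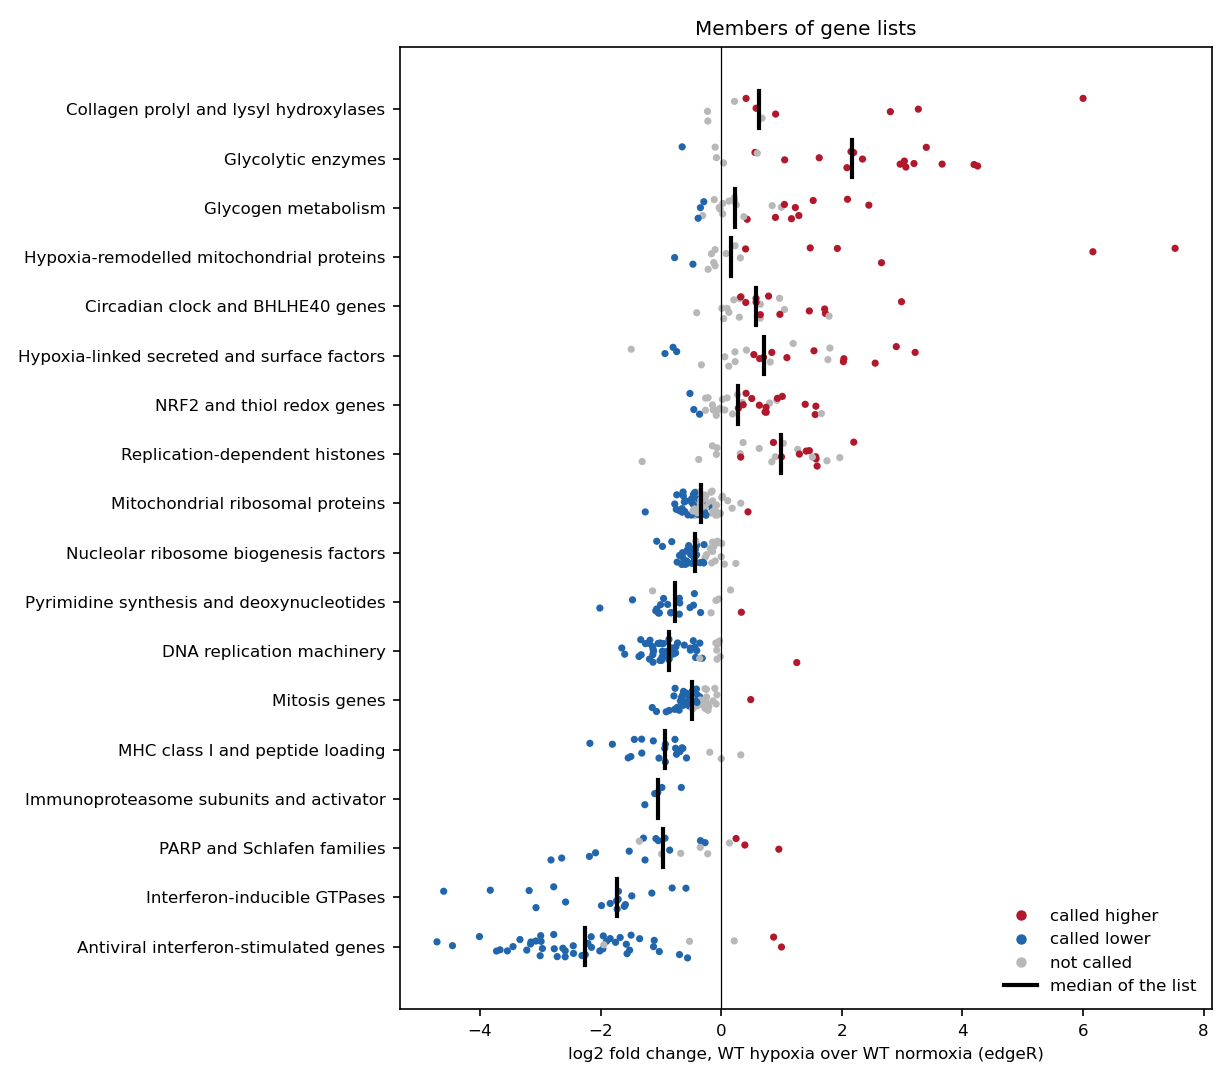
Log2 fold change (WT hypoxia over WT normoxia, x axis) of each tested member of the lists named on the left, with points coloured as called higher, called lower or not called and a black bar at the list's median. The bar lies at 2.17 for glycolytic enzymes and at -2.25 for antiviral genes, and at 0 a gene would have the same level in both conditions.

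Not every call above was held by library 3 of each condition alone. Without libraries 1 and 2 of both conditions, a fit with 1 WT library a condition, the rises of Slc16a3 (log2 fold change 3.70, adjusted p = 0.123), P4ha2 (6.24, adjusted p = 0.117), Mir210 (7.39, adjusted p = 0.152) and Cox4i2 (3.33, adjusted p = 0.0563) kept their direction and did not pass the threshold. The same held among sugar genes for Hk1, Hk2, Pgam2, Slc2a3, Slc2a6, Gys1, Gbe1 and Ppp1r3b, among oxygen-using enzymes and HIF genes for Alkbh3, Plod3 and Vhl, and among mitochondrial genes for Cox7a1, Idh3a and mt-Nd1. Of the growth, immune and surface genes, Myc, Mybl2, Spc25, Ccne1, Hist2h4, Bbc3, H2-Aa, Tnf, Tnfsf10 and Nt5e also kept their direction without passing it. Some values were much smaller there: Hif3a had 0.24 ± 1.13 (2.43 over all libraries), Alkbh4 had -0.13 (-0.43 over all libraries) and Ifitm1 had 0.44 (0.87 over all libraries, adjusted p = 0.323 without them). Cul2, Slc16a7, Bak1, Bid, Cd14 and Vwf were not called there either.

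The KO libraries were read in the same way. They differ from the WT libraries in sex-linked RNA as well as in genotype: all 6 carried Xist, at 1358 to 1900 CPM, where WT libraries 1 and 2 of both conditions did not, and KO hypoxia library 1 also had Y-linked RNA at 46.0 CPM, with 0 Y-linked counts in the other KO libraries. The part of sex in the KO response and in the differences below was not tested apart from the fits that leave these libraries out. In KO cells 2540 genes (14.5%) were called higher and 2756 (15.7%) lower under hypoxia. Of the genes called higher in WT, 1362 were called higher in KO cells too, and of those called lower in WT, 1902 were called lower in KO cells too. These 2 responses share no library. The difference of the responses (WT minus KO, the interaction in edgeR) was called positive for 55 genes (0.314%) and negative for 18 (0.103%), 73 in all, with 1787 at an unadjusted p under 0.05. Of the genes called higher in WT, 48 had a larger response in WT. The count was 202 with the replicate block and depended strongly on single libraries: without WT hypoxia libraries 1, 2 and 3 in turn it was 23, 25 and 224, without WT normoxia library 1 it was 20, without KO hypoxia libraries 1 and 2 in turn 18 and 47, without KO normoxia libraries 1, 2 and 3 in turn 21, 38 and 43, and without WT libraries 1 and 2 of both conditions 1.

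Bnip3l had the clearest difference, with a log2 fold change of 2.49 ± 0.11 in WT cells and 0.58 ± 0.11 in KO cells (difference 1.91 ± 0.15, adjusted p = 0.000171). Kdm3a rose by 2.05 in WT cells and by 0.92 in KO cells (difference 1.14, adjusted p = 0.00136), Pdk1 by 3.64 and 1.79 (1.85, adjusted p = 0.00227), Pfkl, the liver phosphofructokinase, by 3.20 and 1.64 (1.55, adjusted p = 0.00479), Tpi1 by 4.19 and 2.18 (2.01, adjusted p = 0.00509) and Ldha by 3.06 and 1.32 (1.75, adjusted p = 0.00597), the WT value first in each case. These 6 differences, with those of P4ha1 (1.19) and Pfkfb3 (1.08), were called in all 12 fits that each left out 1 library. Of the 20 glycolytic genes 10 had a larger WT response and the median log2 fold change was 2.17 in WT cells and 1.13 in KO cells. Galk1, galactokinase, rose in WT cells (1.40 ± 0.16) and had -0.02 in KO cells (difference 1.42, not called without WT hypoxia library 1 or 2, WT normoxia library 1, KO hypoxia library 1 or KO normoxia library 1). Cox4i2 had 4.07 in WT cells and 0.50 in KO cells, the second largest difference among the named genes (3.57, adjusted p = 0.0457), but was called in 3 of the 12 fits.

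Other strongly hypoxic genes had similar values in both genotypes. Egln3 rose by 4.26 in WT cells and 3.97 in KO cells, Ak4 by 6.16 and 5.58, and Slc16a3 by 4.42 and 3.58, and none of these differences was called. Interferon-stimulated genes fell in both, with a median log2 fold change over the 51 antiviral genes of -2.25 in WT cells and -2.87 in KO cells, and Ifit1bl1 (-3.55 in WT and -5.19 in KO cells) was the member whose difference was called. Among genes lower in WT, Ctps had -1.01 in WT cells and 0.01 in KO cells (difference -1.02, adjusted p = 0.0147, not called without WT hypoxia library 2, WT normoxia library 1, KO hypoxia library 1 or KO normoxia library 1). Mitosis genes were called lower in 36 of 57 cases in WT cells and 3 of 57 in KO cells, but the difference was not called for any of them, and this contrast of counts was not itself tested. Txnrd1 rose less in WT cells (0.75) than in KO cells (1.63; difference -0.89, adjusted p = 0.0309), a call held in 5 of the 12 fits.

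Hypoxia library 3 was often the lowest of its group in genes with a larger WT response. Among the 48, hypoxia library 3 was the lowest of the WT hypoxia libraries for 38 (79.2%) and library 1 the highest for 42, whereas library 3 was the lowest for 118 of the 209 genes called more than 4-fold higher (56.5%) and for 37.7% of all tested genes. The median log2 difference between same-numbered libraries over the 209 genes was 2.56 in pair 1, 2.33 in pair 2 and 2.24 in pair 3. Library 3 of both conditions is the pair with Xist and without Y-linked counts, and the part of sex or of the animal in this was not tested.

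**Figure D5:**
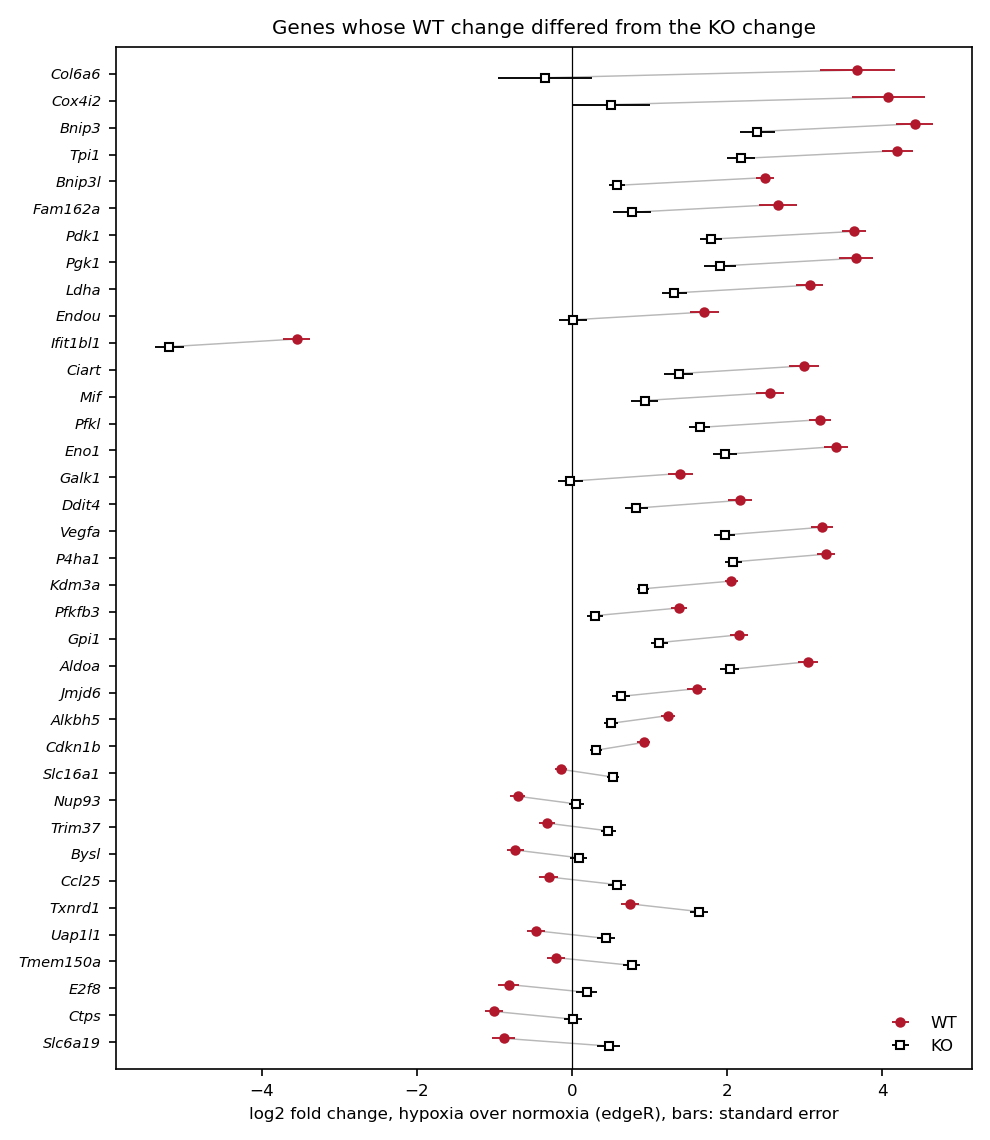
Log2 fold change under hypoxia in WT cells (filled) and KO cells (open squares) with standard errors, for the 37 named genes whose difference was called. Positive differences, such as that of Bnip3l at 2.49 in WT and 0.58 in KO cells, make up 26 of the 37.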

How the data were processed

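RNA was sequenced from 12 libraries, 6 of them WT. The authors deposited 1 table of read counts per gene, whole numbers without normalisation, made per the submitters' notes with CASAVA, Bowtie 0.12.2 and mm10. For the read counter, the annotation release and strand use, the tool or setting is not given in the sources used here. Reads of antisense partners and of near-identical gene copies cannot be told apart for this reason.

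Counts were scaled by TMM and tested with edgeR 4.0.16 (R 4.3.3, limma 3.58.1): filterByExpr kept 17506 of 46983 genes, those left out held 0.0738% of the counts, and 4 group means were fitted over 12 libraries with the robust quasi-likelihood F test (common biological coefficient of variation 0.164). The contrasts were WT hypoxia minus WT normoxia, the same in KO, and their difference, each adjusted by Benjamini-Hochberg over all tested genes at 0.05. The fit was tested on simulated counts. WT libraries held 27629175 to 36533223 counts, and counting intervals (95%, exact binomial, on summed counts) cover counting error only. Alternatives were another scaling, filter, tool (DESeq2 1.42.0), set of libraries and the replicate block.

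Deviations from the group means correlated at 0.196, 0.36 and 0.434 between same-numbered WT libraries, against -0.343 to 0.023 between others, so the numbers were taken to pair the WT libraries. The pairing rests on the data, since the labels give only the numbers.

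Members and gene lists were chosen with earlier results of these data known. Named genes were up to 5 called members per list and direction with the smallest adjusted p, the 20 largest called changes in each direction with groups that do not overlap, the 10 largest differences between WT and KO responses in each direction, isoform pairs, and Hif1a, Cd79a, Tnfsf11 and Tnfrsf11b. Some genes that the rule names are not reported here. Promoter windows (RefSeq, GRCm38.p6, 250 bases before and 50 after the start) matched 11485 tested genes by symbol and chromosome, and 2269 with more than 1 window entered by the first listed.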

Additional observations from a re-analysis of the deposited data

Results flagged for a closer look

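For 37 named genes the hypoxia response differed between WT and KO cells by edgeR's interaction test (adjusted p under 0.05). All values here are the WT response minus the KO response on the log2 scale, and each difference was also called with the replicate block. Of the glycolytic and lactate genes, the difference was 2.01 for Tpi1, 1.75 for Pgk1, 1.75 for Ldha, 1.55 for Pfkl, 1.43 for Eno1, 1.08 for Pfkfb3, 1.03 for Gpi1, 1.01 for Aldoa and, in the negative direction, -0.66 for Slc16a1. In mitochondrial genes it was 3.57 for Cox4i2, 2.02 for Bnip3, 1.91 for Bnip3l, 1.88 for Fam162a and 1.85 for Pdk1. Among oxygen-dependent enzymes it was 1.19 for P4ha1, 1.14 for Kdm3a, 0.98 for Jmjd6 and 0.73 for Alkbh5. Secreted, matrix and signalling genes gave 4.03 for Col6a6, 1.62 for Mif, 1.25 for Vegfa, 1.34 for Ddit4, 0.61 for Cdkn1b and -0.88 for Ccl25. The circadian repressor Ciart gave 1.62, galactokinase Galk1 gave 1.42, Endou, an endoribonuclease, gave 1.7, and the interferon-stimulated Ifit1bl1, which fell in both genotypes, gave 1.64.

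A negative difference was found for Slc6a19, an amino acid transporter (-1.35), Ctps, CTP synthase (-1.02), E2f8, a cell cycle repressor (-1.0), Tmem150a (-0.97), Uap1l1 (-0.9), Txnrd1 (-0.89), Bysl, a ribosome assembly factor (-0.82), Trim37, a ubiquitin ligase (-0.79), and Nup93, a nuclear pore protein (-0.75).

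Of the 37, 8 were called in all 12 fits that left out 1 library: Tpi1, Bnip3l, Pdk1, Ldha, Pfkl, P4ha1, Kdm3a and Pfkfb3. In all, 20 were called in at least 6 of these fits. Col6a6, Cox4i2, Endou, Cdkn1b, Nup93 and Bysl were called in 3 of them, Pgk1 and Fam162a in 2, and Ccl25 in 1. Each of the 37 kept its sign in all 12. All KO libraries carried Xist and WT libraries 1 and 2 of both conditions did not, and the part of sex in these differences was not tested beyond leaving those WT libraries out.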

How the results depend on the processing

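The counts for hypoxia in WT cells, 2003 genes higher and 2859 lower, were 1372 to 1933 and 2168 to 3152 when each of the WT libraries was left out in turn. They were 2202 and 2563 with RLE scaling, 2137 and 2658 with TMM factors computed without immunoglobulin and mitochondrial genes, 1830 and 2529 without a filter on low counts, 2116 and 2674 with a minimum of 1 CPM in 3 libraries, 1707 and 1998 in a fit of only the 6 WT libraries, and 2453 and 2816 with DESeq2. With the replicate block, which uses the pairing of the WT libraries, they were 2446 and 3415 over all 12 libraries and 2941 and 3358 over the WT libraries alone. Without WT libraries 1 and 2 of both conditions they were 506 and 863. That fit has 1 WT library a condition, which is assumed to vary like the KO libraries.

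The number of genes whose WT and KO responses differed, 73, was 194 without a filter, 202 with the replicate block, 294 with DESeq2, 1 without WT libraries 1 and 2 of both conditions, and 18 to 224 when each of the 12 libraries was left out in turn. The cause of these shifts was not tested. It was 84 with RLE scaling, 91 with the other TMM factors and 90 with the CPM minimum.

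Of the 528 named genes that were called for hypoxia in WT cells, none changed direction under any alternative run. Calls were kept for 513 with RLE scaling, 514 with the other TMM factors, 484 without a filter, 502 of 515 tested with the CPM minimum, 448 of 526 in the WT libraries alone, 522 with the replicate block over all 12 libraries, 522 with DESeq2, 249 without WT libraries 1 and 2 of both conditions, and 442 to 490 when a WT library was left out. The block over all 12 libraries lost the calls of Hif3a, Ndufa4l2, mt-Cytb, mt-Nd4, Ifi27 and Vcam1, and the block over the WT libraries alone kept 517 of 526. With 3 libraries a condition and a coefficient of variation of 0.164, small changes and genes of low counts are at the limit of what these libraries resolve.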
